A study of Danio rerio with 32 samples.

Results

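Transcripts of 6 genes of red blood cells were followed in wild-type and gys2 knockout zebrafish, adult females whose liver and skeletal muscle were sampled. The genes were the adult alpha globins hbaa1 and hbaa2, the adult beta globins hbba1 and hbba2, the erythroid enzyme gene alas2 and the red-cell membrane gene slc4a1a. They were chosen by symbol, and all 6 had a row among the 31658 genes of the count table. The fish were of the AB strain, and there were 4 groups of 8 libraries: wild-type liver, knockout liver, wild-type muscle and knockout muscle. Gys2 is the liver form of glycogen synthase. Nothing in the labels gives the position of the lesion, the number of mutant alleles or founders, or whether blood was flushed from the tissues. Libraries were made by Lasy-Seq, which reads the 3′ end of polyadenylated transcripts, and they are named below by group and replicate number.

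Haemoglobin is built from alpha and beta globin chains, each holding a haem. In zebrafish the alpha and beta globin genes lie side by side in shared clusters, and embryonic globins give way to adult ones as the fish matures. Fish red cells keep their nucleus and carry globin transcripts in the circulation, so that a piece of tissue taken with its blood holds globin RNA. Adult zebrafish make red cells mainly in the kidney marrow. In bulk tissue, fewer red cells and less globin RNA per red cell cannot be told apart.

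Library totals ran from 1514099 to 15351773 counts, and knockout livers were deeper than wild-type livers (mean 6573847 against 1859737 counts, a ratio of 3.53). The targeted transcript gys2 had 2.43 to 23.6 CPM in wild-type livers and 0.252 to 2.98 CPM in knockout livers, so that the groups overlapped at their edges. It was too sparse for the liver test. All 6 liver markers were higher and all 6 muscle markers were lower in liver than in muscle, in each genotype. CPM here are counts divided by a library size that was adjusted by TMM, which scales all 32 libraries to each other on the assumption that most genes do not differ.

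The 4 globin genes together held a small share of each library. The share was 0.0540% ± 0.0314 in wild-type liver, 0.0662% ± 0.0316 in knockout liver, 0.0895% ± 0.0189 in wild-type muscle and 0.105% ± 0.0484 in knockout muscle (SD, n = 8 each). Its range over the 32 libraries was 0.0263% in wild-type liver 4 (509 counts, 95% Wilson interval 0.0241% to 0.0287%) to 0.203% in knockout muscle 1 (7357 counts, 0.199% to 0.208%), where the intervals cover counting error only. The 4 groups overlapped. The gap between neighbours in this order was within the SD of each, except that knockout liver lay further below wild-type muscle than the SD of wild-type muscle. In wild-type liver the highest library, number 5, held 0.125%, and the next held 0.0623%. On the TMM scale the order changed: the summed level was 560 ± 382 CPM in wild-type liver, 787 ± 194 in wild-type muscle, 874 ± 487 in knockout muscle and 993 ± 389 in knockout liver (SD, n = 8 each).

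Vitellogenins, the yolk proteins that the female liver makes, held 24.2% ± 7.88 of counts in wild-type livers and 30.4% ± 12.1 in knockout livers (SD, n = 8 each). The liver with the highest globin share in each genotype had the lowest vitellogenin share of its group, 11.5% in wild-type liver 5 and 5.44% in knockout liver 1. With vitellogenin counts left out of the totals, the globin share was 0.0700% ± 0.0340 in wild-type liver and 0.0925% ± 0.0317 in knockout liver (SD, n = 8 each). In muscle, library 6 had the highest vitellogenin share and the lowest globin share in each genotype, with vitellogenins at 5.27% in wild type and 2.74% in knockout and globins at 0.0553% and 0.0594%. With vitellogenin counts left out, wild-type liver 5 was still the highest of its group (0.141%) and wild-type muscle 6 the lowest (0.0583%). In knockout the highest liver was then number 2 (0.142%) and the lowest muscle number 7 (0.0601%). Wild-type liver 3 had the highest vitellogenin share of its group (35.2%) and a globin share of 0.0543%. The part of vitellogenin transcripts in the globin levels was not tested further. The next highest vitellogenin shares in muscle were 0.687% in wild-type muscle 4 and 0.638% in knockout muscle 4. The 6 liver markers, vtg1 among them, summed to 2870 CPM at the lowest, 3180 at the median and 28600 at the highest in wild-type muscles. In knockout muscles these values were 2590, 3110 and 14500 CPM. Whether liver RNA was in some muscle libraries was not tested.

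**Figure D1:**
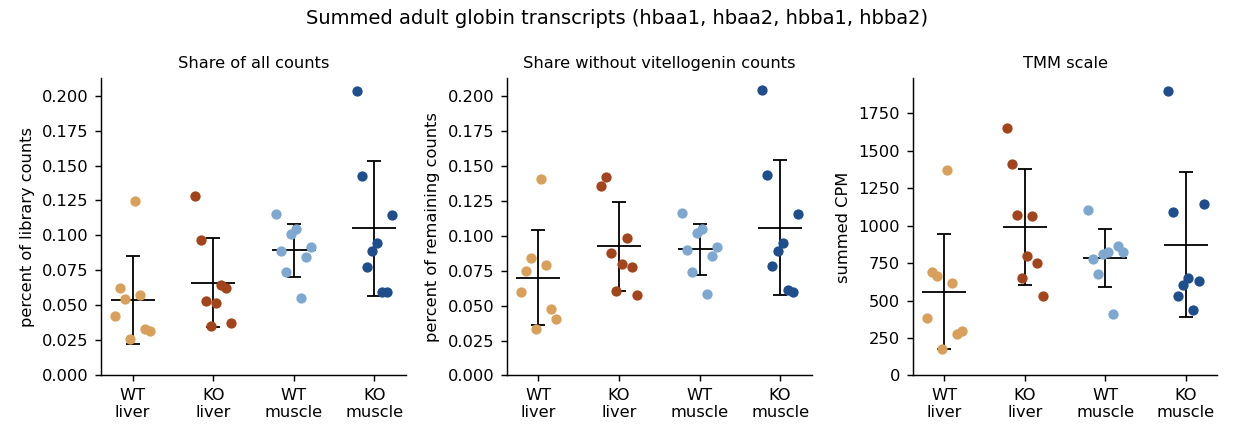
Summed counts of hbaa1, hbaa2, hbba1 and hbba2 in each library, as a percent of all counts (left), as a percent of counts without vitellogenin genes (middle) and as summed TMM-scaled CPM (right). Points are libraries, bars are mean ± SD of 8; the groups overlap in every panel, and wild-type liver runs lowest on average in each.

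Of the alpha globins hbaa1 and hbaa2, hbaa1 had the higher counts in every group. Its level was 44.1 CPM at the lowest, 132 at the median and 412 at the highest in wild-type liver, and 129, 229 and 363 CPM in knockout liver. In muscle the lowest, median and highest levels were 132, 231 and 369 CPM in wild type and 127, 166 and 413 CPM in knockout. Wild-type liver thus had both the lowest and nearly the highest library, a 9.34-fold range, against 2.79-fold to 3.25-fold in the other groups.

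The second alpha globin gene, hbaa2, gave 2.66% to 11.5% of the hbaa1 and hbaa2 counts in knockout livers, and 3.81% to 8.78% in wild-type livers. Its levels ran from 2.78 CPM through a median of 7.91 to 21.2 in wild-type liver and from 5.56 through 7.80 to 47.1 in knockout liver. In muscle they ran from 4.82 through 11.0 to 25.4 CPM in wild type and from 4.29 through 6.71 to 36.6 CPM in knockout. In knockout liver 3 libraries lay above every wild-type liver while 4 of 8 lay below the wild-type median, so that the mean of 18.5 CPM was set by a few libraries.

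The main beta globin transcript was hbba1, with the highest counts of the 6 genes in every group (366 to 8056 counts in livers). It had 127, 325 and 909 CPM at the lowest, median and highest in wild-type liver, and 388, 657 and 1179 CPM in knockout liver. All 8 knockout livers lay above the wild-type liver median, and 2 lay above the highest wild-type liver. In muscle the lowest, median and highest were 260, 505 and 695 CPM in wild type and 298, 467 and 1377 CPM in knockout.

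The minor beta globin, hbba2, had the widest fold range of the 4 globin genes in every group except wild-type muscle, where hbaa2 did. It ran from 2.78 through a median of 8.21 to 31.3 CPM in wild-type liver and from 2.98 through 12.2 to 67.9 CPM in knockout liver, a 22.8-fold range. Its counts were 6 to 56 in wild-type livers and 8 to 464 in knockout livers, so that counting error adds to its fold range. It ran from 7.36 through 13.9 to 24.4 CPM in wild-type muscle and from 6.30 through 15.5 to 71.2 CPM in knockout muscle. The highest liver and the highest muscle of the knockout were both number 1.

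Alas2 makes the first enzyme of haem synthesis in red cells, and its loss in zebrafish gives pale blood. Its level was 4.20 ± 2.68 CPM in wild-type liver, 7.49 ± 2.56 in wild-type muscle, 8.04 ± 4.01 in knockout liver and 9.62 ± 3.76 in knockout muscle (SD, n = 8 each). Counts ran from 2 to 16 per library in wild-type liver and from 11 to 93 in knockout liver. The last 3 means lie within each other's SD, and wild-type liver was lowest, with 4 of its 8 libraries below every wild-type muscle.

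Slc4a1a encodes band 3, the anion exchanger of the red-cell membrane, which zebrafish also need for red-cell division. It was the sparsest member, with 1 to 7 counts in wild-type livers and 0 to 25 in knockout livers, 2 of which were at 0. A count of 0 allows up to 3 counts in such a library. Its level was 1.76 ± 1.45 CPM in wild-type liver, 2.22 ± 1.54 in knockout liver, 4.26 ± 1.86 in knockout muscle and 4.78 ± 2.15 in wild-type muscle (SD, n = 8 each). Muscle was higher than liver in mean level in each genotype. The 2 knockout livers at 0 had the lowest levels, but the lowest wild-type count was 1, so this order is within counting error.

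**Figure D2:**
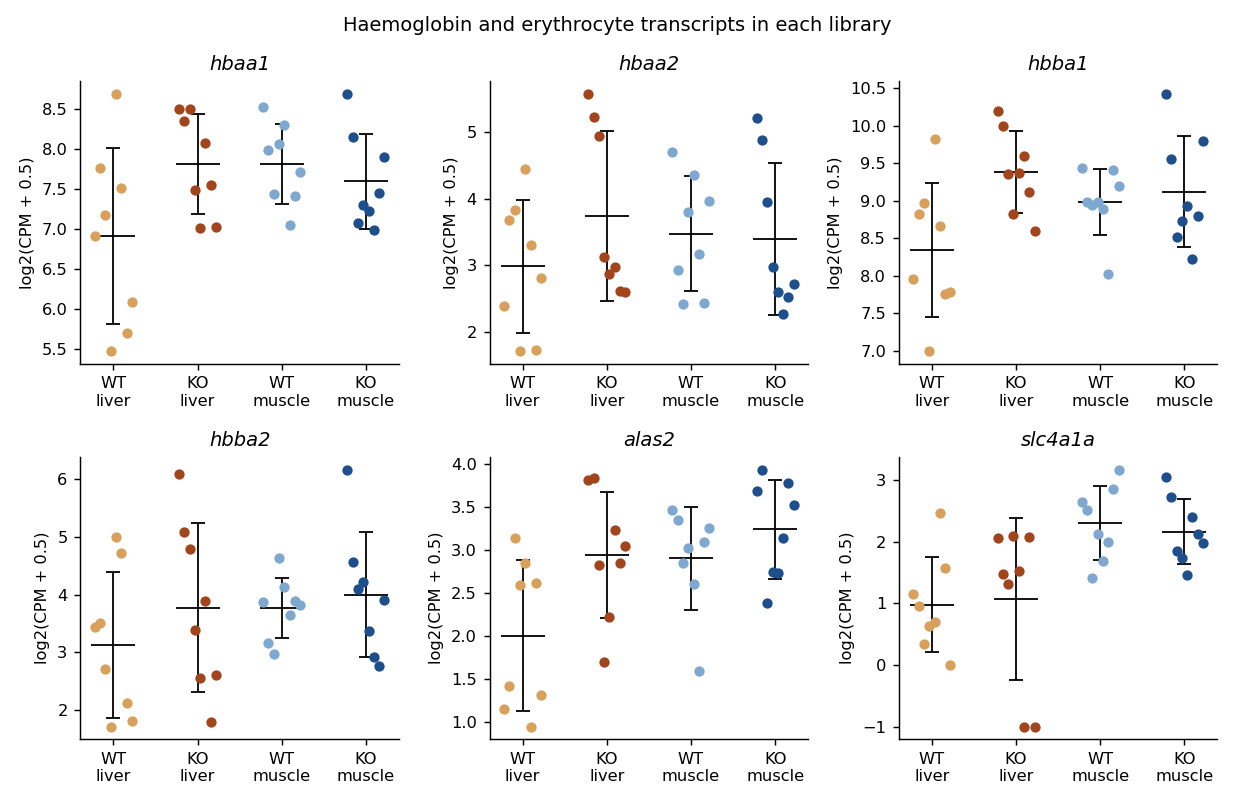
Level of each of the 6 genes in the 32 libraries, as log2(CPM + 0.5), with mean ± SD of 8 libraries per group. The groups overlap for every gene; slc4a1a sits lower in the liver groups, with 2 knockout livers at 0, and hbba2 has 1 high library in knockout liver and in knockout muscle.

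Whether the knockout changed the blood transcripts in liver was asked with edgeR's quasi-likelihood test across all genes. No member passed a Benjamini-Hochberg adjusted p of 0.05, where 0.0742% of all tested genes did (7 of 9438). All 5 members that passed the count filter had a higher fitted level in knockout than in wild type. The log2 changes were 0.52 ± 0.36 for hbaa1, 0.93 ± 0.52 for hbaa2, 0.75 ± 0.30 for hbba1, 0.72 ± 0.64 for hbba2 and 0.75 ± 0.39 for alas2 (SE). The smallest p was that of hbba1, 0.0201 unadjusted and 0.165 adjusted by edgeR. Over all genes 2111 had an unadjusted p under 0.05. The fits with DESeq2 and with limma-voom called no member either. Single libraries moved these values by over 1.5 times: without wild-type liver 5 the log2 change was 0.93 for hbaa1 and 1.17 for hbba2, and without knockout liver 1 it was 0.24 for hbba2, none of which passed. Without wild-type liver 5 the count over all genes was 68 in place of 7. Slc4a1a did not pass the filter and differed by 0.09 in mean log2(CPM + 0.5), with an exact permutation p of 0.865. Scaled to library totals alone, the median log2 change of all genes was -0.542 in place of -0.025 and that of hbba1 was 0.35, so that the size of the liver difference depends on the scaling.

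In muscle, none of the 6 members passed, and 0% of the 12415 tested genes did. Over all genes 588 had an unadjusted p under 0.05, and DESeq2 called 1 gene, which was no member. The log2 changes of knockout against wild type were -0.17 ± 0.24 for hbaa1, 0.14 ± 0.52 for hbaa2, 0.26 ± 0.26 for hbba1, 0.61 ± 0.46 for hbba2, 0.36 ± 0.28 for alas2 and -0.15 ± 0.33 for slc4a1a (SE). Adjusted p-values by edgeR lay between 0.960 and 0.991. Knockout muscle 1 decided the values of the beta globins: without it, hbba2 went from 0.61 to -0.014 and hbba1 from 0.26 to -0.012.

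The difference between the liver and the muscle effect of the knockout was tested as an interaction over all 32 libraries. No member passed in edgeR, where 0.211% of 13725 genes did. The differences were 0.83 ± 0.50 for hbaa1, 0.97 ± 0.79 for hbaa2, 0.62 ± 0.45 for hbba1, 0.31 ± 0.83 for hbba2, 0.57 ± 0.49 for alas2 and 0.59 ± 0.65 for slc4a1a on the log2 scale (SE), with a median of 0.107 over all genes.

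**Figure D3:**
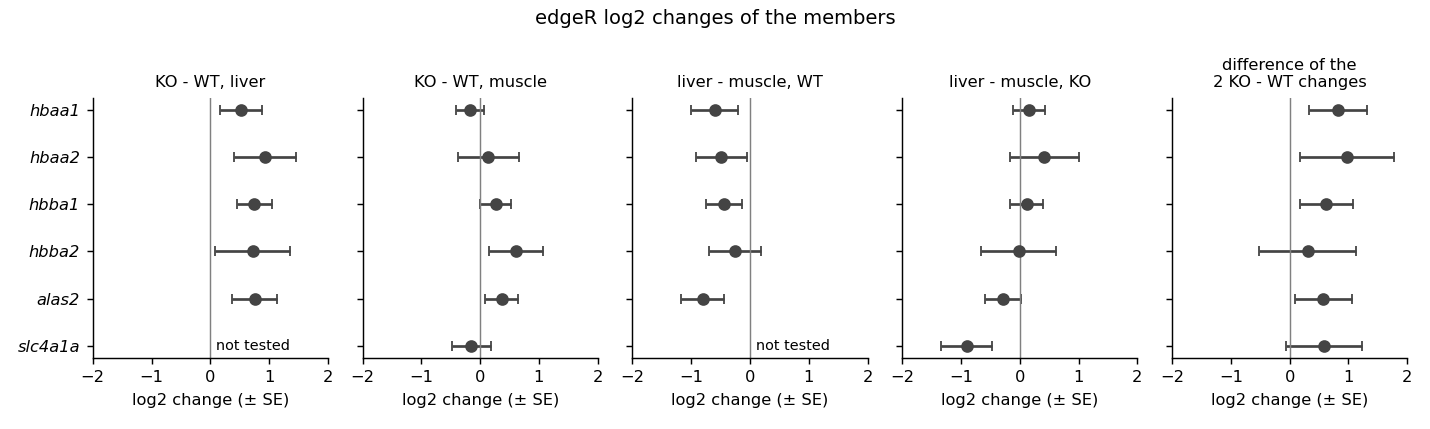
Log2 change ± SE of each gene in the 5 comparisons fitted with edgeR, with a line at 0. In liver the 5 tested genes lie to the right of 0 in knockout against wild type, in muscle they straddle 0, and slc4a1a was not tested where it failed the count filter.

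Liver and muscle were compared within each genotype, with the libraries taken as independent. In wild type 33.9% of tested genes differed between the tissues, and none of the 5 tested members did in the main fit. Limma-voom, fitted with a quality weight for each library, called hbaa1 and hbba1 among 3736 of 10648 genes. That fit differs from the main one in more than the test. A fit with the replicate number as a block called hbaa1 among 3358. The log2 changes of liver against muscle were -0.60 ± 0.40 for hbaa1, -0.49 ± 0.43 for hbaa2, -0.44 ± 0.31 for hbba1, -0.26 ± 0.44 for hbba2 and -0.80 ± 0.37 for alas2 (SE), with edgeR adjusted p-values from 0.0968 for alas2 to 0.716 for hbba2. Wild-type liver 5 decided the globin values: without it hbaa1 had a log2 change of -1.01 (edgeR adjusted p = 0.0102), and hbba1 had a change of -0.78 (edgeR adjusted p = 0.0136). Alas2 passed in edgeR without wild-type muscle 6 (adjusted p = 0.0356) or without wild-type liver 3 (log2 change -0.97). Wild-type muscle 6 had the highest vitellogenin share of its group, 5.27%.

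Slc4a1a was lower in wild-type liver than in wild-type muscle. It failed the count filter, and by the two-sided exact permutation test on log2(CPM + 0.5) it differed by -1.32 (p = 0.00295, n = 8 per tissue, unadjusted; 2 such tests were made). A total of 6 of 8 livers lay below the lowest muscle. Where slc4a1a entered the edgeR fit, without a filter or with wild-type liver 1, 2, 3, 4, 5 or 8 left out, its log2 change was -1.30 to -1.58 with adjusted p-values from 0.0105 to 0.0252. Its counts were 1 to 7 in these livers and 8 to 43 in these muscles, so it passed the filter mainly through muscle. All these fits reuse the libraries of the permutation test and are no separate support. Over all genes they called 4837 of 29220 with no filter and 3561 to 3741 with a liver left out. Of the 10648 genes in the main fit, 4271 had an unadjusted edgeR p under 0.05. A difference between the tissues thus does not set slc4a1a apart from other genes. In knockout the log2 change of slc4a1a was -0.91 ± 0.43 (SE, edgeR adjusted p = 0.0889). The interaction did not pass for this gene, so the tissue difference was not shown to depend on genotype.

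In knockout 43.4% of tested genes differed between liver and muscle, and none of the 6 members did. The log2 changes of liver against muscle were 0.16 ± 0.27 for hbaa1, 0.42 ± 0.59 for hbaa2, 0.12 ± 0.28 for hbba1, -0.02 ± 0.63 for hbba2 and -0.29 ± 0.31 for alas2 (SE), against a median of -0.153 over all genes. With library totals as the only scaling the median of all genes was -1.03, hbaa1 had a change of -0.69 and hbba1 of -0.68, and both passed in edgeR (adjusted p = 0.0161 and 0.0489). On that scaling 9021 of the 11685 tested genes passed, so a pass there does not set a member apart. The log2 changes of hbaa1, hbaa2 and hbba1 were thus above 0 on the TMM scale and below 0 on library totals, while that of hbba2 was below 0 on each. All 4 globin genes were above the median of all genes on each scale.

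Levels of the globin genes were correlated from library to library in liver, and less evenly in muscle. Deviations of log2(CPM + 0.5) from the group mean were correlated over the 16 libraries of a tissue, with 100000 permutations within genotype and adjustment over 30 tests. In liver all 6 pairs of globin genes had Pearson's r from 0.755 (hbba1 with hbba2, Spearman's rho 0.729, adjusted permutation p = 0.00225) to 0.897 (hbaa1 with hbba1, rho 0.824, adjusted permutation p = 0.0003). Without the 2 libraries farthest from the median of hbaa1, the correlation of hbaa1 with hbba1 was 0.801. Within genotype that pair gave 0.946 in wild type and 0.757 in knockout, over 8 libraries each.

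In muscle the r of globin pairs ran from 0.501 (hbaa2 with hbba1, rho 0.394, adjusted permutation p = 0.143) to 0.812 (hbaa1 with hbba1, rho 0.785, adjusted permutation p = 0.00137). The other 5 muscle globin pairs passed by r and 3 of the 6 by rho, with adjusted permutation p of 0.0584 for hbaa1 with hbba2 and 0.182 for hbba1 with hbba2 by rho. Within wild-type muscle r was 0.391 for hbaa1 with hbba2, 0.176 for hbaa2 with hbba1 and 0.136 for hbba1 with hbba2, against 0.801, 0.652 and 0.780 within knockout muscle. The muscle values rested partly on the extreme libraries: without the 2 farthest, r was 0.689 for hbaa1 with hbba1, 0.467 for hbaa1 with hbba2 and 0.438 for hbba1 with hbba2. The libraries of a pair share their depth and scaling factor; on CPM of library totals, an alternative added after seeing the data, globin pairs had r of 0.713 to 0.855 in liver and 0.549 to 0.814 in muscle.

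Alas2 was correlated with hbba1 and hbaa1 in muscle, and with no globin gene past the threshold in liver; the difference between tissues was not tested. In muscle its r was 0.701 with hbba1 (rho 0.750, adjusted permutation p = 0.0147, r = 0.625 without the 2 farthest) and 0.667 with hbaa1 (rho 0.709, adjusted permutation p = 0.0167). Its r with hbaa2 was 0.253 and with hbba2 0.136 in muscle. In liver the 4 values ran from 0.162 to 0.349, and none passed; alas2 counts there were as low as 2. Within knockout livers they were 0.603 to 0.705, and within wild-type livers -0.207 to 0.168. Slc4a1a was correlated with alas2 in muscle (r = 0.611, rho = 0.718, adjusted permutation p = 0.0364) and passed with no other member in either tissue.

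**Figure D4:**
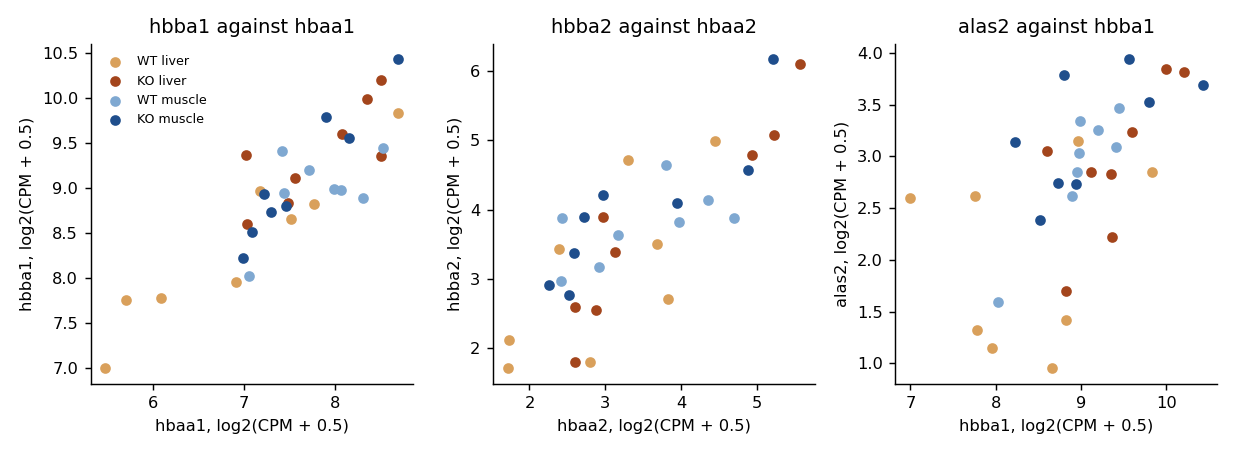
Levels of hbba1 against hbaa1, of hbba2 against hbaa2 and of alas2 against hbba1, each as log2(CPM + 0.5), with 1 point per library and 8 libraries per group. The left panel rises along a diagonal in the liver groups and in knockout muscle, more loosely in wild-type muscle (r = 0.541), and alas2 follows hbba1 most closely in wild-type muscle (r = 0.921).

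The gene whose pattern was most like the summed globins, out of 8651 genes with a mean of at least 5 CPM in each tissue, was si:ch211-5k11.8 (r = 0.935 in liver and 0.923 in muscle, 16 libraries each). In RefSeq's annotation of another assembly, GRCz12tu, this gene is the neighbour of hbba1 and carries the synonym hbaa1.2, so it may share reads with hbaa1. Its level was 204 ± 120 CPM in wild-type liver, 401 ± 198 in knockout liver, 294 ± 78.8 in wild-type muscle and 393 ± 267 in knockout muscle (SD, n = 8 each). Its edgeR log2 change in knockout against wild type was 0.84 ± 0.31 in liver (SE; adjusted p = 0.145) and 0.42 ± 0.34 in muscle (SE; adjusted p = 0.966).

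Its count relative to that of hbaa1 varied widely between libraries, from 84.6% to 234%. The ratio of beta to alpha counts varied from 1.46 to 4.89 over the 32 libraries with hbaa1 and hbaa2 as the alpha genes. With si:ch211-5k11.8 added to the alpha genes, a choice made after seeing the data, it varied from 0.814 to 1.52, with means of 1.09 ± 0.107 in wild-type liver, 1.13 ± 0.186 in knockout liver, 0.998 ± 0.147 in wild-type muscle and 1.07 ± 0.135 in knockout muscle (SD, n = 8 each). These are ratios of 3′-end counts as assigned to each gene. Neither their absolute size nor their spread was tested as a measure of the ratio of the RNAs. If the copies are alike in sequence, which was not tested, reads can be split between them, and levels of hbaa1 alone are then uncertain as a measure of alpha globin RNA. Hbaa2 and hbba2 overlap in that annotation, and no source used here says whether strand was used in counting.

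The next most similar genes were cox8b (r = 0.884 in liver and 0.852 in muscle), ndufb6, atp5f1d, ndufa4l, uqcrfs1, mt-atp6, cox6c, cox5aa and uqcrq, whose lower r of the 2 tissues was 0.758 to 0.781. Cox8b, cox6c and cox5aa belong to cytochrome c oxidase, uqcrfs1 and uqcrq to the cytochrome bc1 complex, ndufb6 to the NADH dehydrogenase complex, and atp5f1d and mt-atp6 to ATP synthase. Across all 8651 genes the median r was 0.0817 in liver and -0.00348 in muscle. The 99th percentile of the lower r was 0.659. Of the members, hbba1 had a lower r of 0.983 and hbaa1 of 0.902, and both are part of the sum. Hbba2 had 0.692 and hbaa2 0.615, though they too are part of it, and alas2 had 0.292. Hbba2, hbaa2 and alas2 thus lay below each of the 10 genes named. On CPM of library totals 9 of these 10 genes were again among the 10 most similar, and cox5aa ranked 16. The genes most like alas2 were pygma, hadhb, ilk, chchd7 and tnpo1 (lower r 0.562 to 0.691), and those most like slc4a1a were lonp1, isca1, spryd4, srsf2a and cox8a (0.551 to 0.606), over the same libraries.

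Ratios between globin copies do not depend on scaling, while their counting error depends on depth. They were set side by side for liver and muscle libraries with the same replicate number. The labels do not say that a number marks a fish. This was chosen after seeing the data, over 20 relations of 8 pairs, on log2 ratios and with exact permutation tests. The count of si:ch211-5k11.8 relative to hbaa1 in knockout liver and in knockout muscle had r = 0.974 (exact permutation p = 0.000422, adjusted 0.00843; rho = 0.905, adjusted 0.0456; r = 0.936 without the 2 farthest). In wild type the same relation had r = 0.772 and rho = 0.690 (exact permutation p = 0.0301 and 0.0694, adjusted 0.120 and 0.198).

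The share of hbba2 in the beta globin counts had r = 0.891 between knockout liver and knockout muscle (exact permutation p = 0.00384, adjusted 0.0256; rho = 0.952, adjusted 0.0228; r = 0.770 without the 2 farthest). In wild type it had r = 0.550 (exact permutation p = 0.161, adjusted 0.380). The ratio of hbba1 to hbaa1 had r = 0.884 between wild-type liver and wild-type muscle (exact permutation p = 0.0037, adjusted 0.0256), but rho = 0.786 did not pass (adjusted 0.140), and r was 0.664 without the 2 farthest. In knockout it had r = 0.402 (exact permutation p = 0.349, adjusted 0.538). The share of hbaa2 in the alpha globin counts had r = 0.878 in knockout (exact permutation p = 0.00853, adjusted 0.0427), with rho = 0.786 (adjusted 0.140), and r = -0.221 in wild type (exact permutation p = 0.573, adjusted 0.763). Each copy ratio thus passed by r in 1 genotype and not in the other, and the difference between genotypes was not tested. The minor copies had fewer counts in wild-type livers (hbba2 6 to 56, hbaa2 8 to 38) than in knockout livers (8 to 464 and 10 to 322). Counting error in their ratios thus differs between the genotypes, and its part was not tested. Of the 10 relations between genotypes, none passed after adjustment. The total globin share had r = -0.0723 in wild type and 0.526 in knockout between liver and muscle (exact permutation p = 0.853 and 0.178, adjusted 0.853 and 0.380).

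**Figure D5:**
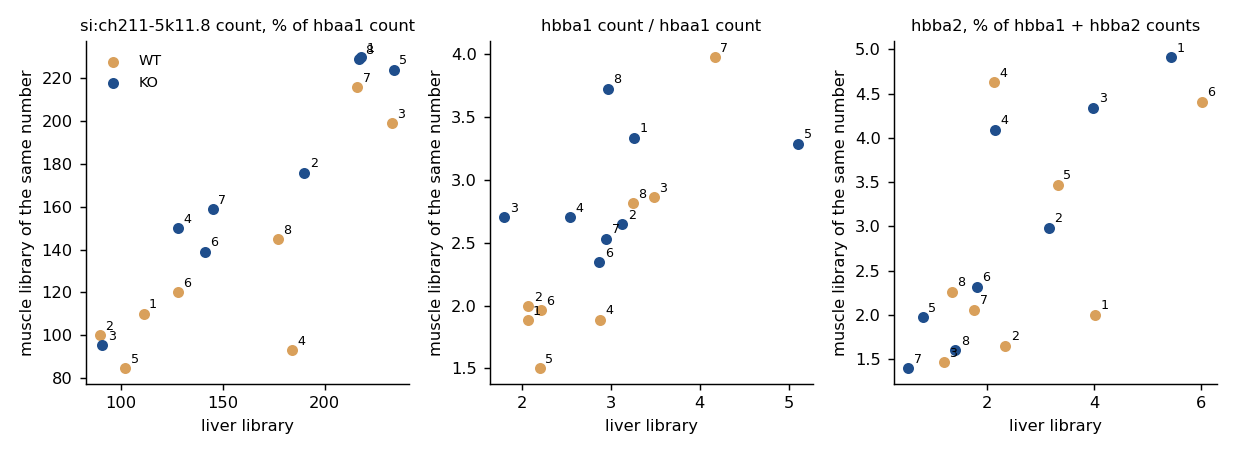
Ratios of globin counts in liver libraries (horizontal axes) against muscle libraries of the same replicate number (vertical axes), 8 numbered pairs per genotype: si:ch211-5k11.8 as a percent of hbaa1, hbba1 over hbaa1, and hbba2 as a percent of the beta globins. In the left panel the 8 knockout pairs lie along a line (r = 0.974 on log2 ratios), while wild-type pair 4 stands off (184% in liver, 93.0% in muscle).

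Other genes of red cells and of haem were taken from lists. Embryonic and larval globins were near 0: the 9 genes found summed to 0.282 to 6.08 CPM per library, hbae5 had the highest group mean at 1.01 ± 0.557 CPM in knockout muscle (SD, n = 8), and none passed the count filter. Of the listed genes, 0 passed in knockout against wild type in liver and 0 in muscle in edgeR. In liver 9 of 10 tested genes of haem synthesis and its transport had a positive log2 change (median 0.47, against -0.025 over all genes). So had 11 of 12 genes of haem and iron handling (median 0.557), 7 of 8 macrophage markers (median 0.524) and all 6 liver markers (median 0.517), while 4 of 5 endothelial markers (median -0.186) and 3 of 3 thrombocyte markers (median -0.364) had a negative one. In muscle the medians were 0.046 for haem synthesis, -0.315 for haem and iron handling, -0.565 for liver markers, 0.11 for endothelial markers and -0.984 for neutrophil markers, against 0.004 over all genes. The part of liver-cell transcripts in the values of the haem and iron genes was not tested. The red-cell membrane list had 2 positive and 1 negative change of 3 tested in liver (slc43a1a 0.38 ± 0.45, add2 -0.32 ± 0.21, SE, and cahz). Cahz, the carbonic anhydrase of zebrafish red cells, named here after its values were seen, had 10.8 ± 4.28 CPM in wild-type liver and 18.6 ± 6.79 in knockout liver (SD, n = 8 each; edgeR log2 change 0.64 ± 0.26 SE, adjusted p = 0.165). Of the erythroid regulators, 3 of 4 tested had a negative log2 change in liver (median -0.156): gata1a -0.25 ± 0.38, klf1 -0.17 ± 0.35 and lmo2 -0.15 ± 0.32, against 0.44 ± 0.34 for ldb1a (SE).

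The counts between tissues below stand against 33.9% of all genes called in wild type and 43.4% in knockout, in either direction. A gene can pass the count filter through 1 tissue alone, so these counts depend in part on where a gene is high. Rhag and ank1a, named below, failed that filter among livers alone, and slc25a38a failed it among muscles alone. Between tissues, the red-cell membrane list gave 1 higher and 2 lower genes of 6 tested in wild-type liver, and 1 higher and 3 lower of 6 in knockout liver (median log2 change -0.553 and -0.56, against 0.01 and -0.153 over all genes). The erythroid regulators gave 1 lower gene of 4 in each genotype, ldb1a in wild type and lmo2 in knockout, a share below that of all genes. Rhag, the ammonia channel of the red-cell membrane, was lower in liver by edgeR (wild type, log2 change -2.56 ± 0.39 SE, adjusted p = 4.07e-06; 1.74 ± 1.38 against 11.2 ± 4.93 CPM, SD, n = 8 each). Ank1a, an ankyrin of the membrane skeleton that mammalian muscle also makes, was lower too (-3.29 ± 0.26 SE, edgeR adjusted p = 3.34e-11), and the amino acid transporter gene slc43a1a was higher (1.51 ± 0.26 SE, edgeR adjusted p = 2.43e-05). In knockout the skeleton gene add2 was lower as well (-0.69 ± 0.20 SE, edgeR adjusted p = 0.00634). Of the haem synthesis list, 1 of 9 tested genes was higher and 2 lower in wild-type liver, and 4 of 12 higher and 1 lower in knockout liver, shares near the 33.9% and 43.4% of all genes. Slc25a39, a mitochondrial carrier, was higher in liver in each genotype (log2 change 1.34 ± 0.43 and 2.53 ± 0.38 SE, edgeR adjusted p = 0.0157 and 8.22e-06). Slc25a38b was lower in each (-0.68 ± 0.25 and -1.10 ± 0.25 SE, edgeR adjusted p = 0.0395 and 0.000894). Tmem14ca was lower in wild type (-1.31 ± 0.25 SE, edgeR adjusted p = 7.03e-05) and did not pass in knockout. Slc25a38a was higher in knockout (6.36 ± 0.62 SE, edgeR adjusted p = 1.34e-07), where it passed the filter through liver, and was not tested in wild type. Its level was 62.8 ± 42.4 CPM in knockout liver and 0.767 ± 0.692 in knockout muscle. In wild type it was 41.6 ± 42.8 CPM in liver and 1.02 ± 0.887 in muscle (SD, n = 8 each), so the gap is not particular to knockout.

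Of the genes that clear haemoglobin and handle iron, 8 of 13 tested were higher in wild-type liver and 9 of 13 in knockout liver, with 1 lower in each, where 33.9% and 43.4% of all genes were called in either direction (median log2 change 1.875 and 2.571). Transferrin (tfa) had 14500 ± 7830 CPM in wild-type liver and 378 ± 530 in wild-type muscle (SD, n = 8 each), and haptoglobin (hp), which binds free haemoglobin, had 817 ± 597 and 58.9 ± 24.9. The iron transporter gene slc11a2 was the only gene of the lists that passed the interaction test (log2 difference 1.498 ± 0.34 SE, edgeR adjusted p = 0.0397). Its p ranked 24 among 13725 genes, of which 29 (0.211%) passed. Over all genes the interaction calls were 4 with thinning and 2 to 62 with a library left out. Whether slc11a2 was among those was not examined. It had 20.4 ± 5.28 CPM in wild-type liver, 32.3 ± 10.1 in knockout liver, 9.24 ± 3.77 in wild-type muscle and 5.25 ± 1.46 in knockout muscle (SD, n = 8 each). Myoglobin (mb), the oxygen store of muscle, was lower in liver (wild type, log2 change -3.04 ± 0.24 SE, edgeR adjusted p = 3.97e-11).

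Of the markers of other cells of blood and vessels, the endothelial and macrophage lists had the most calls between tissues. Summed endothelial markers were 111 to 163 CPM in wild-type livers and 217 to 293 in wild-type muscles. They were 107 to 151 in knockout livers and 241 to 331 in knockout muscles. How many other sums of genes separate the tissues in this way was not counted. Of these markers, 6 of 8 tested were lower and 0 higher in wild-type liver, and 8 of 9 lower in knockout liver, among them the vessel genes kdrl, cdh5, plvapb and cldn5b (median log2 change -1.107 and -1.141). Tie1 (-0.016 ± 0.184 SE) and pecam1 (-0.257 ± 0.205 SE) did not pass in wild type, and both were lower in knockout liver. The other genes of the 19 found failed the count filter. Kdrl and cdh5 also passed it among livers alone. Plvapb and cldn5b, at 2.70 and 3.02 CPM in wild-type liver, did not and were tested through muscle, so the filter in part sets the count of lower genes. Macrophage markers were lower in liver for 6 of 9 tested genes in wild type and 4 of 9 in knockout, with 0 higher (median -1.365 and -0.601); the knockout share is near the 43.4% of all genes. Thrombocyte markers gave 0 calls of 3 in wild type and 1 lower of 3 in knockout, neutrophil markers 2 lower of 6 and 1 higher and 1 lower of 3, and the 9 lymphocyte markers summed to 0.760 to 13.5 CPM with none tested. The neutrophil list's calls in knockout were cpa5 (higher) and s100a10b (lower), while lyz was not tested. These few calls in opposite directions give no reading of neutrophils. The part of vessel content in the lower slc4a1a level of liver was not tested.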

How the data were processed

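Per the labels, polyadenylated RNA of 32 samples was read by Lasy-Seq at transcript 3′ ends, each reverse-transcription primer carrying a sample index before pooling. The deposited table holds raw counts, whole numbers for each gene and library that the authors did not normalize. Tools named in the submitters' processing notes are Salmon 1.10.2, fastp 0.23.4 and BWA 0.7.17-r1188, with the build GRCz11. No source used here states the annotation, strand setting, use of molecular identifiers or rounding. The table's 31658 genes included 1430 at 0 in all libraries, and intervals and limits from counts cover counting error only.

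The 6 genes and the gene lists were chosen with earlier results of these data known. Counts were tested with edgeR 4.0.16 in R 4.3.3: robust quasi-likelihood fit, TMM, filterByExpr (minimum count 10, total 15), group as the only term, Benjamini-Hochberg adjustment over all genes, threshold 0.05. Log2 changes are ± SE. Levels are CPM on 1 TMM scale over 32 libraries. A member that failed the filter had an exact permutation test on log2(CPM + 0.5), whose smallest p is 0.0001554. Replicates are separate fish within a group per the labels. The labels do not say which liver goes with which muscle, so tissues were compared as independent libraries. Alternatives were DESeq2 1.42.0, limma-voom 3.58.1 with a quality weight for each library, other scalings and filters, and thinning. A replicate block, 1 fit over all libraries and each library left out were used too. The rule for naming genes besides the members took up to 4 called genes per list, or else up to 2 with the highest level. It also took the 10 genes most like the summed globins and the 5 most like alas2 and slc4a1a. Some genes that the rule took from the lists are not named. Of the list genes, cahz, gata1a, klf1, tie1 and pecam1 are named outside the rule. The fits were tested on simulated data.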

Additional observations from a re-analysis of the deposited data

Results flagged for a closer look

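In 6 of 32 checks of a group of 8 libraries, the highest library stood apart by Dixon's test. Its usual rate of 1 in 20 holds for independent, normally distributed values. The values checked were not log-transformed, and some share counts, as hbaa1 is part of the globin share. The number of flags can thus not be set against that rate. In wild-type liver, hbaa1 had 412.2 CPM in the highest library against 217.9 in the next, and the globin share had 0.1246% against 0.0623%; both were library 5. In the same group slc4a1a had 5.022 CPM in library 6 against 2.464 in the next, on at most 7 counts. Hbba2 had 67.9 CPM in knockout liver 1 against 33.21 in the next knockout liver, and 71.2 CPM in knockout muscle 1 against 23.19 in the next knockout muscle. The ratio of hbba1 to hbaa1 counts was 5.106 in knockout liver 5 against 3.258 in the next, and in that library si:ch211-5k11.8 was at 234% of hbaa1, the highest of the 32 libraries. No cause was tested for these values.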

How the results depend on the processing

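Of 822 alternative values of a member's change, 777 kept direction and call, 11 newly passed the threshold, and 34 changed sign, 2 of these past the threshold. None fell below it, but only 18 values could. These belong to the permutation test of slc4a1a between wild-type liver and muscle, and no member passed in a main edgeR fit. In knockout against wild type, no alternative called a member in liver, in muscle or in the interaction. Calls over all genes differed widely between these settings. With library totals they were 3249 of 9438 in liver and 3372 of 13725 in the interaction, against 7 and 29 in the main fits. In muscle they were 0 with library totals and 3 of 29511 with no filter. For liver against muscle in wild type the count of members called went from 0 to 2 with limma-voom (hbaa1, hbba1), to 1 with library totals (hbba1), to 1 with no filter (slc4a1a), to 1 with a replicate block (hbaa1) and to 0 to 3 with a library left out. For liver against muscle in knockout it went from 0 to 1 with limma-voom (slc4a1a) and to 4 with library totals (hbaa1, hbba1, alas2, slc4a1a). Of all 11685 genes tested there, limma-voom called 5837 and library totals 9021.

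Sign changes, as log2 changes, were as follows. In muscle, knockout against wild type, hbaa2 had -0.030 and hbba1 -0.015 with limma-voom, and hbaa2 -0.047 with the replicate block. With a library left out these ran from -0.27 to 0.37 for hbaa2, -0.012 to 0.37 for hbba1, -0.014 to 0.76 for hbba2 and -0.34 to 0.037 for slc4a1a. In knockout liver against muscle, hbba2 had 0.036 with DESeq2 size factors, 0.10 with no filter and -0.56 to 0.57 with a library left out, and hbba1 -0.0087 to 0.37. With library totals hbaa1, hbaa2 and hbba1 had -0.69, -0.43 and -0.68 there, and in the interaction hbba2, alas2 and slc4a1a had -0.30, -0.18 and -0.20; that scaling moved the median of all genes to -1.035 and -0.702. The interaction of hbba2 ran from -0.25 to 0.90 with a library left out. The liver genotype difference of slc4a1a was -0.25 at a pseudocount of 0.1 and -0.055 to 0.39 with a library left out. The cause of these sign changes was not tested.

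Over all genes, liver calls were 7 with edgeR, 340 with DESeq2, 215 with limma-voom, 549 in the fit over all libraries and 3249 with library totals. Same-numbered libraries had deviations over all genes correlated above 0.1 in 0 of 8 wild-type and 1 of 8 knockout liver and muscle pairs. Across genotypes this held in 3 of 8 liver and 5 of 8 muscle pairs. Such a check between different tissues cannot settle whether a number marks a fish. By number, si:ch211-5k11.8 relative to hbaa1 had r = 0.974 in knockout and 0.772 in wild type. The labels give no pairing, and none was used in the main fits. With the replicate block, calls were 5 in liver, 2 in muscle and 20 in the interaction. Between tissues they were 3358 in wild type and 4696 in knockout. Livers that correlated best with the muscle of their own number were 0 of 8 in wild type and 3 of 8 in knockout. Between genotypes, whose fish differ, the best match had the same number for 2 of 8 livers and 5 of 8 muscles. The highest same-number r there was 0.429, between muscles. What a number marks across genotypes was not tested. Slc4a1a rests on 0 to 25 counts in liver, where a change in few counts moves its level.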
